A study of Homo sapiens with 6 samples.

Results

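The genes described here are 8 kinases and regulators of the PI3K and AKT pathway: AKT1, AKT2, PIK3CA, PIK3CB, PIK3R1, PDPK1, INPP4B and PHLPP1. They were picked out by gene symbol, by a rule that used no measured value, although earlier results of these data were known. All 8 were found among the 26255 genes listed for every sample. The experiment asked which transcripts change when CRPC cells are exposed to bruceantin (BCT), a plant quassinoid. All samples were 22RV1, a human CRPC cell line, grown in full medium (RPMI with 10% FBS, which contains androgen and growth factors). Of the 6 RNA-seq samples, 3 received DMSO, the solvent control, and 3 received BCT at 10 nM, and both groups were harvested after 24 h. This is 1 cell line at 1 dose and 1 time. Nothing in the labels says whether the samples of a group came from separate cultures, so the p-values measure the spread between these samples, which may be technical.

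In this pathway, growth factor receptors and their adaptors recruit class I PI3K, a pair of a catalytic subunit such as p110α (PIK3CA) or p110β (PIK3CB) with a regulatory subunit such as p85α (PIK3R1). PI3K makes the membrane lipid PIP3, to which AKT binds and where PDPK1 phosphorylates it. Lipid phosphatases such as INPP4B remove phosphates from PIP3 and its products, and the PHLPP phosphatases remove a phosphate from AKT itself. The pathway is often active in prostate cancer, and AKT1 and PDPK1 proteins are known clients of the HSP90 chaperone. The RNA measurements below do not report on protein, on phosphorylation or on kinase activity.

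The values are FPKM, which scale the fragments of a gene by its length and by the size of the library, so levels can be compared between genes. FPKM holds no read counts, and only relative depth could be derived. Taking DMSO replicate 1 as 1, the other DMSO samples had depths of 0.884 and 0.878, and the BCT samples 1.05 to 1.13. Deposited values summed to 1169649 to 1572321 FPKM per sample with DMSO and to 757534 to 799838 with BCT, and MIR6087 alone made up 43.5% to 55.3% of the sum with DMSO and 31.7% to 32.5% with BCT. The share of MIR6087 and the sum therefore moved with the treatment, and directions that turn when the sums are made equal are named below. BCT replicate 1 stood apart from the other BCT samples. On the first principal component, which held 72.0% of the variance, it lay at 40.2 against 65.0 and 63.8, while the DMSO samples lay between -57.7 and -54.3. Of the genes that mark prostate epithelium (KLK3, HOXB13, EPCAM, KRT8 and KRT18) all 5 were detected in every sample, but their levels moved in both directions. KLK3 went from 8.73 FPKM with DMSO to 1.05 with BCT, HOXB13 from 90.1 to 66.3 and EPCAM from 75.6 to 61.8. KRT8 went from 270 to 610 FPKM and KRT18 from 337 to 1109. Genes of blood, endothelial and stromal cells summed to 1.54 to 1.62 FPKM over 7 genes with DMSO and 5.16 to 6.51 with BCT. COL1A1, a collagen gene, made up most of that sum, from 1.43 ± 0.175 FPKM (SD, n = 3) to 5.83 ± 0.69, and PTPRC, CD3E, PECAM1 and CDH5 were at or below 0.067 FPKM in every sample. Fewer cells that express a gene and less of its RNA per cell cannot be told apart in these bulk samples.

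Of the 8 genes, AKT1 and AKT2 fell with BCT, PIK3R1 rose, and 5 did not pass both thresholds for a call. A gene was called at an absolute log2 fold change above 0.85 with an adjusted p below 0.05 from limma on log2(FPKM + 0.1), adjusted over the 12729 genes whose 6 samples averaged 1 FPKM or more. All 8 genes passed that filter. Being called lower was shared by 17.8% of all tested genes and being called higher by 13.9%, beside 2 and 1 of the 8. An adjusted p below 0.05 alone was reached by 7 of the 8, and by 82.1% of all tested genes. The BCT samples lay wholly above the DMSO samples for 3 genes and wholly below for 4, again a share near that of all tested genes, of which 85.3% did not overlap. The median of the 8 log2 fold changes was -0.14, against -0.04 over all tested genes. As a group the 8 genes were therefore near the background of this treatment. Without BCT replicate 1 the same 3 genes were called, and the other 5 stood at log2 fold changes of 0.49 (PIK3CA), -0.25 (PIK3CB), 0.34 (PDPK1), -0.50 (INPP4B) and -0.06 (PHLPP1).

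**Figure D1:**
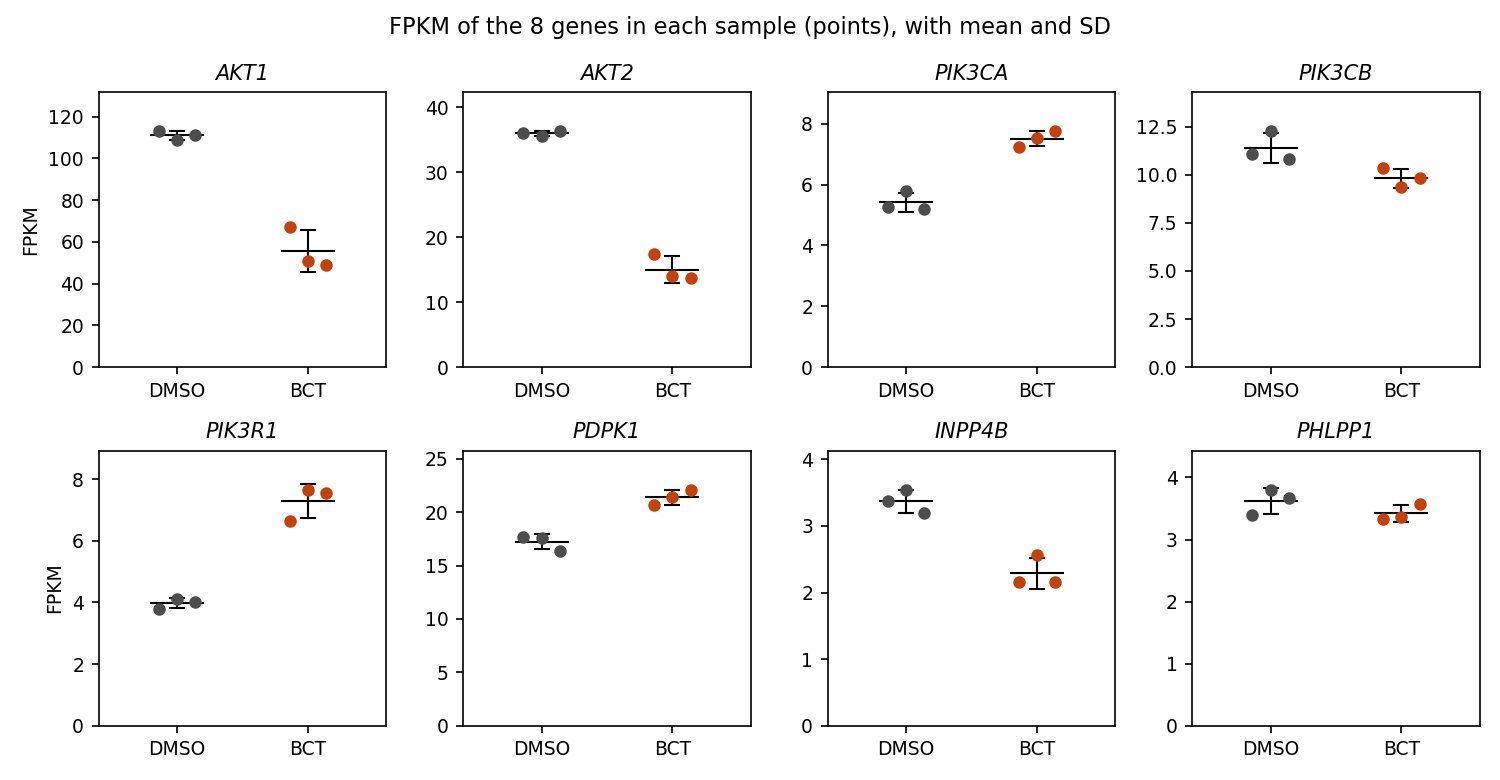
FPKM of each of the 8 genes (vertical axis, each panel from 0) in the 3 DMSO and 3 BCT samples, with each sample a point, the long bar the mean and the error bar the SD (n = 3). AKT1 and AKT2 drop from 111 to 55.8 and from 36.0 to 15.0 FPKM, PIK3R1 goes from 3.98 to 7.29, and PHLPP1 is the only panel in which the groups overlap.

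The promoter sequences shown are those of the 3 called genes and of PIK3CA. PIK3CA was not called and was the only 1 of the 8 with a match to the FOXO motif. They are the 250 bases before the first start that RefSeq lists on GRCh38.p14, written 5′ to 3′ on the strand of the gene: AKT1 at chr14:104795749-104795998 (minus strand), AKT2 at chr19:40285346-40285595 (minus), PIK3R1 at chr5:68215506-68215755 (plus) and PIK3CA at chr3:179148107-179148356 (plus). Capitals mark GC boxes (GGGCGG, or CCGCCC on the other strand, overlaps counted) and, in PIK3CA, the core of the FOXO binding motif.
AKT1: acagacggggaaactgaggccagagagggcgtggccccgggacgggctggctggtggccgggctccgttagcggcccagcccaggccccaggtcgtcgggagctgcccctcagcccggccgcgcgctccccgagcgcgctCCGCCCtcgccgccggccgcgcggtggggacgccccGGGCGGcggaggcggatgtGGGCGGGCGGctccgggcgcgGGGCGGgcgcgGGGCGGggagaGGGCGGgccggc
AKT2: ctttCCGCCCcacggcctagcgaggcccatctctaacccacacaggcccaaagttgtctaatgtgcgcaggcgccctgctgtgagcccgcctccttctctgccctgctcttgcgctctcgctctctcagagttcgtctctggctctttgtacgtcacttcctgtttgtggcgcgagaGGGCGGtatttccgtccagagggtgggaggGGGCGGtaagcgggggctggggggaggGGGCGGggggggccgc
PIK3R1: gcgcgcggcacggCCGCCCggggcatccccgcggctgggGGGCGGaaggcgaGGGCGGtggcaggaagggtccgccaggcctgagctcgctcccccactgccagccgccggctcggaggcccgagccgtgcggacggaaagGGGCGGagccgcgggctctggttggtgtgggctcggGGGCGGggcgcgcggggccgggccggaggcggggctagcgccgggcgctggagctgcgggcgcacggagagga
PIK3CA: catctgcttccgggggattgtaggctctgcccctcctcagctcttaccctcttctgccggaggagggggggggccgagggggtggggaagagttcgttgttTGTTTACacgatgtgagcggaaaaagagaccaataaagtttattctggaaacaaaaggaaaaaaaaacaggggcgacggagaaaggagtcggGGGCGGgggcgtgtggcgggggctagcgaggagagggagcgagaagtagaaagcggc
AKT1 held 7 GC boxes at a GC content of 83.2%, AKT2 held 4 at 66.0%, PIK3R1 held 5 at 81.6% and PIK3CA held 1 at 57.6%. The count before PIK3R1, which rose, lay between those before AKT1 and AKT2, which fell. Over all 8 genes 7 held at least 1 GC box in this window, as did 42.3% of 27305 promoter windows of the same length. The exception was INPP4B, which has 6 listed starts, of which only the first was searched. The FOXO motif (GTAAACA, or TGTTTAC on the other strand) was found before PIK3CA alone among the 8, starting at position -149 from the gene start, and in 2.98% of all windows. FOXO factors are held out of the nucleus by AKT. A match of letters is a description of the window and not evidence of binding.

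AKT1, the most abundant of the 8 transcripts, lies at chr14:105235687-105262080 on hg19, the build of the deposited positions (minus strand). Its DMSO samples stood at 113, 109 and 111 FPKM, and its BCT samples at 67.3, 51.1 and 48.9. Every BCT sample was below every DMSO sample, with BCT replicate 1 the closest to them. The mean fell by 49.8%, from 111 ± 2.07 to 55.8 ± 10.1 FPKM (SD, n = 3), and the log2 fold change was -1.01 ± 0.11 (SE, 95% interval -1.26 to -0.75; limma adjusted p = 4.14e-05). Without BCT replicate 1 the log2 fold change was -1.15. On the log2 scale, 13.9% of the tested genes had a lower fold change than AKT1.

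AKT2, whose kinase is best known for insulin-driven glucose uptake, lies at chr19:40736224-40791302 (minus strand). The DMSO samples read 36.1, 35.6 and 36.3 FPKM and the BCT samples 17.4, 14.0 and 13.7. The DMSO samples were within 1 FPKM of each other and no BCT sample came near them. AKT2 fell by 58.3%, from 36.0 ± 0.363 to 15.0 ± 2.02 FPKM, with a log2 fold change of -1.26 ± 0.09 (95% interval -1.47 to -1.06; limma adjusted p = 3.44e-06) and of -1.37 without BCT replicate 1. It was the only one of the 3 called genes that passed a test against the fold change threshold itself (limma adjusted p = 0.00562, against 0.379 for AKT1 and 1 for PIK3R1).

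The ratio of AKT1 to AKT2 within a sample, which does not depend on how that sample was scaled, was 3.13, 3.06 and 3.07 with DMSO and 3.88, 3.65 and 3.56 with BCT. All BCT samples had the higher ratio, by 1.20-fold (two-sided exact permutation p = 0.1, the smallest that 3 samples against 3 allow, as for all 6 ratios of this kind). AKT1 and AKT2 together summed to 147 ± 2.37 FPKM with DMSO and 70.8 ± 12.1 with BCT, and AKT1 made up 75.5% ± 0.228 of that sum with DMSO and 78.7% ± 0.73 with BCT. The sum, unlike the share, depends on the scaling. With equal FPKM sums it was 113 ± 15.5 and 92.2 ± 12.9 rescaled FPKM with overlapping samples (exact permutation p = 0.2). Without MIR6087 in the sums it was 128.6 ± 2.31 and 80.75 ± 11.47, with every BCT sample lower (exact permutation p = 0.1).

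Among the class I catalytic subunits, PIK3CA (p110α, chr3:178866311-178952497, plus strand) read 5.27, 5.78 and 5.21 FPKM in the DMSO samples and 7.25, 7.53 and 7.75 FPKM in the BCT samples. All BCT samples were above all DMSO samples. The mean was 5.42 ± 0.313 FPKM with DMSO and 7.51 ± 0.252 with BCT, a log2 difference of 0.46 ± 0.07 (95% interval 0.31 to 0.62; limma adjusted p = 0.000217), whose whole interval lies under the 0.85 needed for a call.

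PIK3CB (p110β, chr3:138371540-138478201, minus strand), a subunit that also takes signals from G protein-coupled receptors, read 11.1, 12.3 and 10.8 FPKM in the DMSO samples and 10.3, 9.34 and 9.81 FPKM in the BCT samples. The BCT samples lay below, by a small gap. The log2 difference was -0.21 ± 0.07 (95% interval -0.37 to -0.05; limma adjusted p = 0.0198) and its sign turned, to 0.17 and 0.55, when the FPKM sums were made equal without and with MIR6087.

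The balance of the catalytic subunits is a ratio that no rescaling of a whole sample can alter. PIK3CA stood at 0.475, 0.472 and 0.482 of PIK3CB with DMSO and at 0.702, 0.806 and 0.790 with BCT. The DMSO ratios spread by little, and every BCT ratio was above them, by 1.61-fold in the mean (exact permutation p = 0.1). As a share of both transcripts PIK3CA went from 32.3% ± 0.242 to 43.3% ± 1.83, while their sum was 16.8 ± 1.08 FPKM with DMSO and 17.3 ± 0.407 with BCT, with overlapping samples (exact permutation p = 0.4). That sum depends on the scaling. With equal FPKM sums it was 13.0 ± 2.54 and 22.6 ± 0.701 rescaled FPKM, and without MIR6087 in the sums 14.7 ± 1.45 and 19.8 ± 0.695, with every BCT sample higher under both (exact permutation p = 0.1 for each). PIK3CD and PIK3CG, the catalytic subunits typical of leukocytes, were listed at 0.043 FPKM or less in every sample.

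PIK3R1, which encodes p85α and its shorter forms and both stabilises and restrains p110, lies at chr5:67511584-67597649 (plus strand). The DMSO samples gave 3.80, 4.10 and 4.03 FPKM, and BCT samples 6.65, 7.66 and 7.57. The groups were far apart, and BCT replicate 1 was again the BCT sample nearest to DMSO. PIK3R1 rose by 83.4%, from 3.98 ± 0.160 to 7.29 ± 0.557 FPKM, with a log2 fold change of 0.86 ± 0.08 (95% interval 0.68 to 1.03; limma adjusted p = 1.3e-05). The estimate was just past the threshold. It was 0.92 without BCT replicate 1, and 0.82, 0.82 and 0.83 (no call) without DMSO replicate 1, BCT replicate 2 and BCT replicate 3.

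PIK3R2, which encodes p85β and is no member of the 8, moved the other way, so the make-up of the regulatory subunits differed between the groups. It fell from 37.8 ± 0.722 to 9.94 ± 2.34 FPKM (log2 fold change -1.94 ± 0.14; limma adjusted p = 3.97e-06), with 37.9, 37.1 and 38.5 FPKM in the DMSO samples and 12.6, 8.12 and 9.11 with BCT. Its sequence is shared almost whole (99.0% of 100-base stretches) with a read-through transcript of the neighbouring gene, and reads of the 2 cannot be told apart. PIK3R3, which encodes p55γ, was at 11.4 ± 0.702 and 13.4 ± 0.227 FPKM, and 21.7% of its 100-base stretches also occur under another gene symbol. PIK3R1 supplied 7.09%, 7.76% and 7.59% of the summed FPKM of PIK3R1, PIK3R2 and PIK3R3 with DMSO, and 20.3%, 26.2% and 25.4% with BCT. PIK3R2 supplied 71.2% ± 1.24 and 32.3% ± 5.49. These shares were not corrected for transcript GC content, which was 64.1% for PIK3R2 and 40.1% for PIK3R1. The sum itself was 53.2 ± 0.320 FPKM with DMSO and 30.6 ± 1.90 with BCT, without overlap (exact permutation p = 0.1 for this sum and each share). With equal FPKM sums the pool was 41.0 ± 5.90 and 39.9 ± 1.44 rescaled FPKM with overlapping samples (exact permutation p = 0.8), and without MIR6087 in the sums 46.5 ± 1.34 and 35.0 ± 1.40 without overlap (exact permutation p = 0.1). The pools and their rescaling were chosen after the values were seen.

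**Figure D2:**
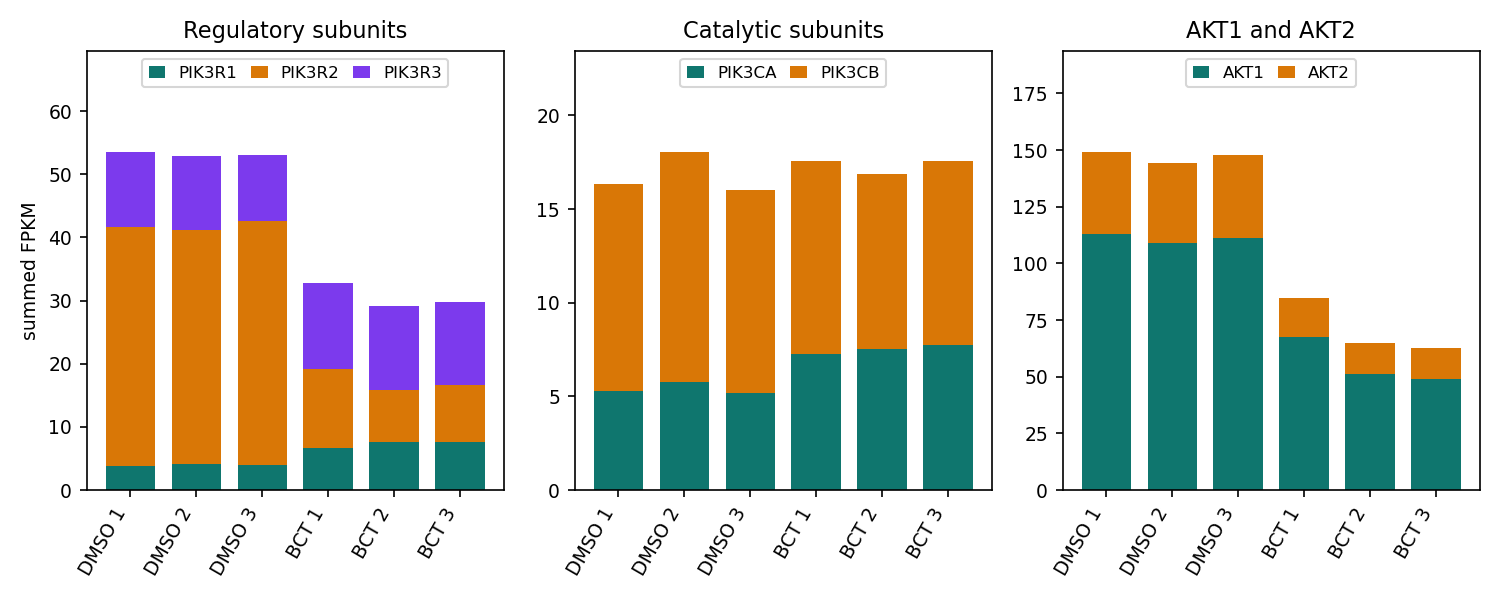
Summed FPKM (vertical axis, from 0) of the regulatory subunits PIK3R1 to PIK3R3, the catalytic subunits PIK3CA and PIK3CB and the kinases AKT1 and AKT2, stacked by gene in each of the 6 samples. As deposited, the regulatory pool goes from 53.2 to 30.6 FPKM with a smaller PIK3R2 part. The catalytic pool is at 16.8 and 17.3 FPKM with a larger PIK3CA part, and the AKT pool goes from 147 to 70.8 FPKM. With equal FPKM sums the regulatory and AKT pools overlap between the groups and the catalytic pool is higher with BCT. With MIR6087 left out of those sums the regulatory and AKT pools are lower with BCT without overlap, and the catalytic pool is higher.

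Set against the catalytic subunits in the same sample, PIK3R1 stood at 0.735 ± 0.0341 of PIK3CA with DMSO and at 0.970 ± 0.0502 with BCT, 1.32-fold higher. Against PIK3CB it went from 0.350 ± 0.0201 to 0.745 ± 0.0909, or 2.12-fold. Neither ratio overlapped between the groups (exact permutation p = 0.1 for each).

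PDPK1, the kinase that phosphorylates the activation loop of AKT, lies at chr16:2587965-2653191 (plus strand). Its DMSO samples read 17.7, 17.6 and 16.4 FPKM and its BCT samples 20.6, 21.4 and 22.1 FPKM. The groups did not overlap. The log2 difference was 0.31 ± 0.06 (95% interval 0.18 to 0.44; limma adjusted p = 0.000771), under the threshold for a call. Of its transcript 12.7% of the 100-base stretches also occur under another gene symbol, so part of its reads may be split. Set against its substrate within a sample, PDPK1 stood at 0.157, 0.162 and 0.147 of AKT1 with DMSO and at 0.307, 0.420 and 0.451 with BCT, 2.50-fold higher in the mean (exact permutation p = 0.1). With DMSO, AKT2 was more abundant than PDPK1 in every sample, and with BCT PDPK1 was the more abundant in every sample.

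The lipid phosphatase INPP4B, which removes the 4-phosphate from the lipid left by 5-phosphatases and is known to be lost in prostate cancers, lies at chr4:142949182-143767604 (minus strand). The DMSO samples had 3.38, 3.54 and 3.20 FPKM and the BCT samples 2.15, 2.56 and 2.15. All BCT samples were lower. The mean was 3.37 ± 0.173 FPKM with DMSO and 2.29 ± 0.237 with BCT, a log2 difference of -0.54 ± 0.10 (95% interval -0.78 to -0.31; limma adjusted p = 0.00102) that missed the fold threshold. It was called lower after a correction for GC content and length (-0.86) and its sign turned with equal FPKM sums (0.20).

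PHLPP1, a phosphatase that takes a phosphate off the hydrophobic motif of AKT, lies at chr18:60382672-60647676 (plus strand). Its values were 3.39, 3.80 and 3.67 FPKM with DMSO and 3.33, 3.36 and 3.58 with BCT. The samples overlapped. The log2 difference was -0.08 ± 0.08 (limma adjusted p = 0.391), with a 95% interval of -0.26 to 0.11. Relative to AKT1 it stood at 0.0326 ± 0.00248 with DMSO and 0.0628 ± 0.0121 with BCT, 1.90-fold higher without overlap (exact permutation p = 0.1).

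With DMSO the 8 transcripts, in FPKM, ranked AKT1, AKT2, PDPK1, PIK3CB, PIK3CA, PIK3R1, PHLPP1 and INPP4B. The last 3 could not be fully separated, as the samples of PIK3R1 and PHLPP1 overlapped and so did those of PHLPP1 and INPP4B, although each pair kept its order within all 3 samples. With BCT the order was AKT1, PDPK1, AKT2, PIK3CB, PIK3CA, PIK3R1, PHLPP1 and INPP4B. PIK3CA and PIK3R1 then overlapped, with PIK3CA above in 2 of 3 samples.

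The level on which all samples are scaled bears on single genes more than on ratios. When the FPKM sums were made equal, the median of all tested genes moved from -0.04 to 0.72, and to 0.34 when MIR6087 was left out of the sum. As deposited, 56.2% of the called genes were lower with BCT, against 10.6% and 26.4% under these scalings. AKT1 then stood at -0.24 and -0.62 (no call) and AKT2 at -0.50 (no call) and -0.88 (called), both below that median. PIK3R1 stood at 1.61 and 1.24, still called. PHLPP1 took a positive sign under both, at 0.67 and 0.30.

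GC content moved with the response of all genes and also separates the 8. Of the 3107 tested genes with the lowest GC content (29.2% to 41.5%) 10.6% were called lower and 16.3% higher, and of the 3107 with the highest (56.3% to 85.5%) 25.3% and 10.2%. AKT1, AKT2 and PHLPP1 belong to the latter and PIK3CA, PIK3CB, PIK3R1 and INPP4B to the former, with PDPK1 between them at 51.6%. After a loess correction for GC content and transcript length AKT1 was at -0.88 and AKT2 at -1.07, both still called, while PIK3R1 was at 0.61 and lost its call. PIK3CA was then at 0.14. The ratios between genes and the pool shares were not corrected for GC content. Whether GC content reflects the library or the response was not tested.

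**Figure D3:**
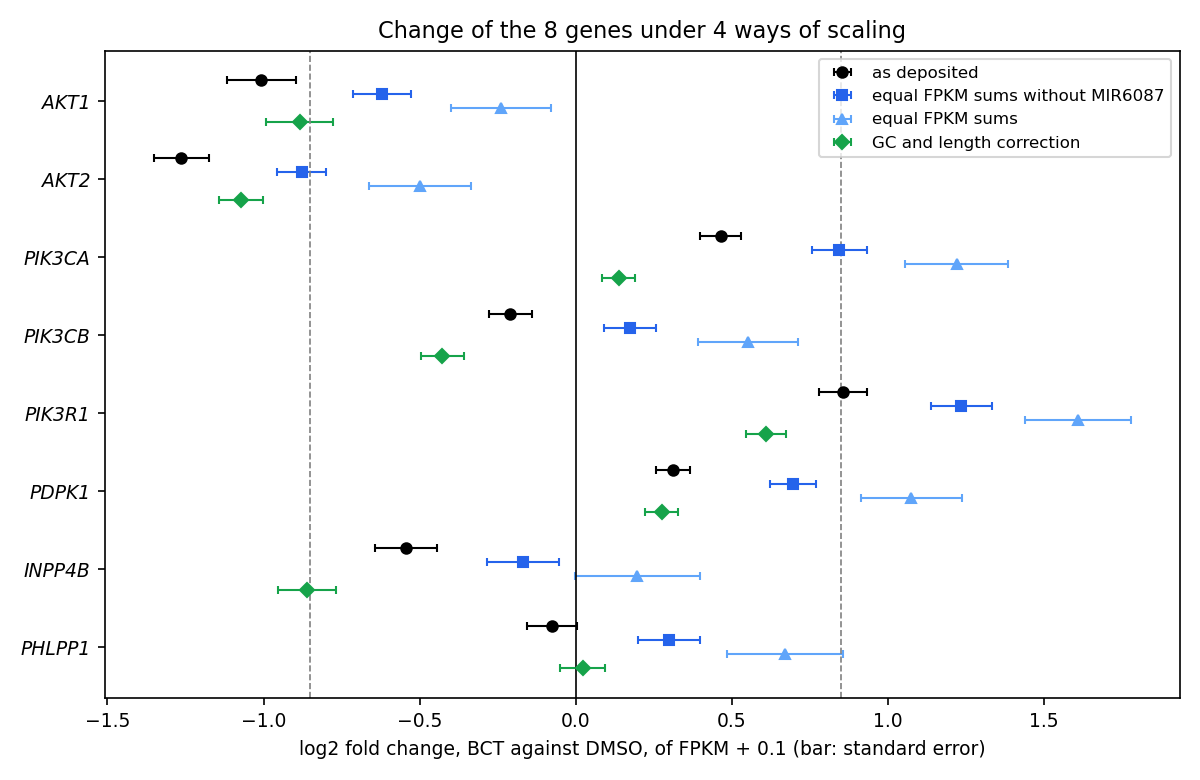
Log2 fold change of the 8 genes, BCT against DMSO, on log2(FPKM + 0.1) (horizontal axis, error bar the standard error) with the values as deposited, with FPKM sums made equal without and with MIR6087, and with GC content and length corrected. Dashed lines mark 0.85 in either direction, AKT1 and AKT2 stay left of 0 and PIK3CA, PIK3R1 and PDPK1 right of it under all of these, and PIK3CB, INPP4B and PHLPP1 cross it.

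Of 74 further pathway genes in 9 lists, 62 could be tested, and 7 were called lower and 14 higher, 33.9% in all, with a median log2 fold change of 0.16. The share called was near that of all tested genes, 31.6%. With equal FPKM sums 3 of the 62 were called lower and 33 higher, where 668 of all 12729 tested genes were called lower and 5609 higher. Of the genes acting at the top of the pathway, those for the insulin receptor and its adaptors split. INSR, the insulin receptor, fell from 4.56 ± 0.417 to 1.93 ± 0.227 FPKM (log2 fold change -1.20; limma adjusted p = 1.63e-05), a call lost with equal FPKM sums (-0.46) and with equal sums without MIR6087 (-0.83). IGF1R, its closest relative, was too low to test, at 0.693 ± 0.0339 and 0.141 ± 0.0153 FPKM. IRS2, the adaptor that carries PI3K to these receptors, rose from 12.8 ± 0.6 to 45.2 ± 2.41 FPKM (1.81; limma adjusted p = 2.76e-07). The other 5 of the 7 tested receptor and adaptor genes were not called, among them GRB2 (-0.35) and IRS1 (0.67). The share called in this list was 28.6%, beside 31.6% of all tested genes.

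The other lipid phosphatases gave 2 calls among 7 tested (28.6%, beside 31.6% of all tested genes). Both were higher and both were for enzymes that remove the 5-phosphate. INPP5J rose from 18.5 ± 1.38 to 33.9 ± 3.09 FPKM (log2 fold change 0.87 ± 0.08; limma adjusted p = 1.55e-05), although it lost its call without DMSO replicate 1 (0.82) or BCT replicate 2 (0.80). SYNJ1 rose from 4.03 ± 0.351 to 8.78 ± 0.73 FPKM (1.10 ± 0.09; limma adjusted p = 7.56e-06). INPPL1 (0.27) and OCRL (-0.23) were not called, and INPP5D, a phosphatase of blood cells, was too low to test, at 0.0173 and 0.422 FPKM.

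Of the phosphatases and inhibitors that act on AKT, 2 of 7 tested were called (28.6%, beside 31.6% of all tested genes), both higher. The BCT samples lay wholly above the DMSO samples for 4 of the 7 and wholly below for 3. Of all tested genes 85.3% did not overlap. PHLPP2, the paralog of PHLPP1, was at the same level as it with DMSO, at 3.63 ± 0.215 FPKM, and rose to 7.43 ± 0.395 with BCT (log2 fold change 1.01 ± 0.07; limma adjusted p = 4.48e-06). PPP2R2A, the PP2A subunit known to direct that phosphatase to AKT, rose from 33.4 ± 1.24 to 64.9 ± 4.50 FPKM (0.95). The PP2A scaffold PPP2R1A (-0.30) and catalytic subunit PPP2CA (0.58) were not called. PPP2CA shares 31.5% of its 100-base stretches with another gene symbol. PHLPP2 and PPP2R2A lost their calls after the GC and length correction, at 0.80 and 0.79.

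SGK kinases share the PDPK1 input and many substrates with AKT. Of the 3 SGK genes 2 were called, in opposite directions, where 31.6% of all tested genes were called. SGK1 rose from 0.440 ± 0.0710 to 3.02 ± 0.743 FPKM (log2 fold change 2.51). It was below 1 FPKM in every DMSO sample and passed the filter only through its BCT samples, so a lower call was not open to it. SGK3 fell from 4.29 ± 0.370 to 1.08 ± 0.0869 FPKM (-1.90). It shares 58.8% of its 100-base stretches with the read-through gene C8orf44-SGK3, which was at 0.316 ± 0.0947 and 0.601 ± 0.0478 FPKM. SGK2, with 11.6% of its 100-base stretches also under another gene symbol, was at 0.49 and not called. Of the mTORC2 subunits, which phosphorylate the hydrophobic motif of AKT, 1 of 5 tested was called (20.0%, under the share of all tested genes). RICTOR, the subunit that defines the complex, rose from 3.57 ± 0.383 to 7.80 ± 0.730 FPKM (1.11), a call lost after the GC and length correction (0.78), while MLST8 (0.01) and MAPKAP1 (0.15) were not called. None of the 4 tested class II and class III PI3K genes was called by limma, among them PIK3C2A (0.36) and PIK3R4 (-0.16). A limma adjusted p below 0.05 was reached by 3 of the 4, and by 82.1% of all tested genes.

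Downstream, 3 of 12 tested AKT substrates were called. FOXO1, a transcription factor that AKT keeps out of the nucleus, rose from 1.63 ± 0.0567 to 4.32 ± 0.510 FPKM (log2 fold change 1.35; limma adjusted p = 7.09e-06), and CDKN1B, the cell cycle inhibitor p27, rose from 92.0 ± 5.44 to 179 ± 2.83 FPKM (0.96). Of the FOXO1 transcript 22.1% of the 100-base stretches also occur under another gene symbol. FOXO4 fell from 4.14 ± 0.311 to 2.18 ± 0.112 FPKM (-0.90). BAD (0.57) and AKT1S1 (-0.28) were not called. BAD, which promotes cell death, gained a call after the GC and length correction (1.15) and with equal FPKM sums (1.34, or 0.96 without MIR6087). The calls of CDKN1B and FOXO4 were lost after the GC and length correction (0.84 and -0.74), and that of FOXO4 also without DMSO replicate 1 (-0.84), with equal FPKM sums (-0.15, or -0.52 without MIR6087) and with a pseudocount of 1 (-0.69).

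Transcripts known as FOXO targets changed in both directions. Of 16 tested, 6 were called higher, 4 lower and 6 were not called, with a median log2 fold change of 0.19, where 13.9% of all tested genes were called higher and 17.8% lower. No test of the list against other genes was made. TXNIP (3.58), which restrains glucose uptake, GADD45A (2.0), a growth arrest gene, IRS2 (1.81), PDK4 (1.49), BCL6 (1.14) and FBXO32 (0.89) rose. FBXO32 lost its call without DMSO replicate 2 (0.84) or BCT replicate 2 (0.79), and after the GC and length correction (0.71). CCNG2 (-1.91), SOD2 (-1.49), CAT (-1.46), which with SOD2 removes reactive oxygen, and INSR (-1.20) fell. With equal FPKM sums only CCNG2 of these 4 kept its call, and SOD2 (-0.72) and INSR (-0.46) were among those that lost it. CITED2 (0.18) and ERBB3 (-0.61) were not called. INSR and IRS2 also stand in the receptor list.

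**Figure D4:**
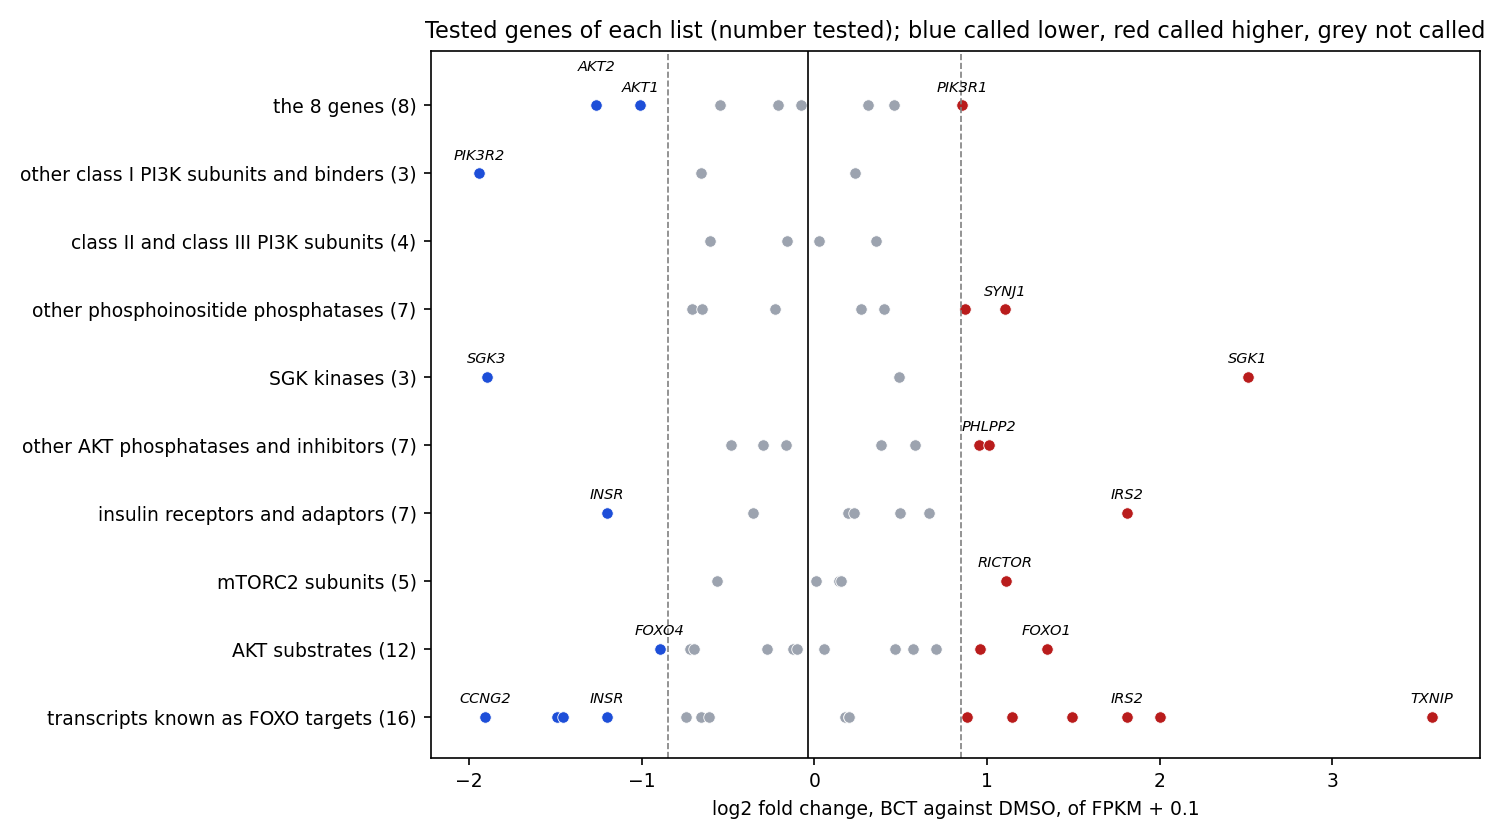
Log2 fold change, BCT against DMSO, on log2(FPKM + 0.1) (horizontal axis) of each tested gene (point) of the 8 genes and the 9 pathway lists, with blue for genes called lower, red for genes called higher and grey for genes not called. The solid line is the median of all tested genes (-0.04), dashed lines mark 0.85 in either direction, and called genes lie on both sides in the lists of kinases, receptors, substrates and FOXO targets.

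The tested genes with the most similar profiles over the 6 samples were found by the root mean square difference of log2 values, each centred on its own DMSO mean. For AKT1 these were PAQR4 (0.0203), NCBP2-AS2 (0.0251) and ATP6V0E2 (0.0278), where the median over all tested genes was 0.744. For AKT2 they were FOXRED2 (0.0203), NRSN2 (0.0272) and FECH (0.0290), and for PIK3R1 they were CNOT3 (0.0163), ZNF317 (0.0184) and GLTSCR1 (0.0263). PIK3CA was nearest to ZFYVE16, TEAD1 and SYDE2, PIK3CB to MRPL19, PMS2 and RAB11FIP1, and PDPK1 to FNBP1L, CDK14 and ATP8B1. PHLPP1 was nearest to HIPK2, ERI1 and PRR12. INPP4B had the most distant neighbours, EZH2 (0.0522), FAM198B (0.0543) and TTK (0.0566). None of the 24 neighbours belonged to the 9 pathway lists. Those lists hold only 62 of the 12729 tested genes, so this absence says nothing about the pathway.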

How the data were processed

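RNA from 3 DMSO and 3 BCT samples of 22RV1 cells was sequenced as paired-end reads from TruSeq v2 libraries, a kit that does not mark strand. The authors filtered the reads with Trimmomatic (0.38 in the submitters' processing notes) and aligned them to hg19 with HISAT2, and deposited 1 FPKM value per gene and sample. The study's methods name StringTie for these values, while the processing notes also list HTSeq and CASAVA. The annotation and the gene-level test are not given in the sources used here.

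Groups and replicate numbers came from the labels. Each gene was tested on log2(FPKM + 0.1) in R 4.3.3 by limma 3.58.1, with moderated variances that follow a trend with expression, and p-values were adjusted by the Benjamini-Hochberg method over the 12729 genes that averaged 1 FPKM or more. The pseudocount understates changes of low genes. Ratios and pools were compared over samples by two-sided exact permutation tests (scipy 1.17.1, Python 3.11.15), which cannot go below p = 0.1. No column of sample values was left unused. FPKM gives neither counts nor counting intervals. Relative depth was read from genes of 0.02 to 0.15 FPKM.

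The 8 genes, the pathway lists and the tests were chosen with earlier results of these data known. Some genes of these lists are not reported here and were left out of the counts over lists. Named are all 8 genes, each called gene of a list, of each list the 2 tested genes not called with the highest mean FPKM, and the 3 nearest profiles of each of the 8 genes. The choice by mean FPKM, the untested genes given as values, the pools and the motifs were chosen after values or sequences were seen.

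GC content, length and shared 100-base stretches came from the longest transcript of each gene in the GENCODE annotation lifted to GRCh37, for 97.6% of the tested genes. Promoter sequences are from RefSeq on GRCh38.p14, and all 8 genes were matched by symbol. The fits were tested on simulated data. Alternatives covered the pseudocount, the filter, the scaling, the FDR, how variances are moderated, testing against the threshold, the replicate block, a loess correction (span 0.5) for GC content and length, and each sample left out. Figures were drawn with matplotlib 3.10.9.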

Additional observations from a re-analysis of the deposited data

How the results depend on the processing

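Across 166 values of the 8 genes under the alternatives, 142 kept direction and side of the call thresholds, 13 lost a call, 4 gained one and 7 changed sign, and over 38 other named pathway genes 725 of 790 kept both. The 6 within-sample ratios kept their direction with a pseudocount of 0.1, with the replicate block and with each sample left out. The block cannot change these differences, and leaving out a sample cannot turn them, as no ratio overlapped between the groups. These settings therefore say little about the ratios, for which the correction for GC content and length was not run. FPKM without counts limits what can be said of low genes, and filtering at a mean of 5 FPKM left INPP4B and PHLPP1 untested. The cause of the changes below was not tested.

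With equal FPKM sums the log2 fold changes were -0.24 for AKT1 and -0.50 for AKT2 (calls lost), 1.22 for PIK3CA and 1.08 for PDPK1 (calls gained), and 0.55 for PIK3CB, 0.20 for INPP4B and 0.67 for PHLPP1 (signs turned), as were those of PIK3IP1 (0.10), PIK3R4 (0.60), OCRL (0.54), PPP2R1A (0.47), GRB2 (0.41), AKT1S1 (0.49) and ERBB3 (0.16). Calls came to 6277 genes, 668 lower and 5609 higher, and to 36 in the pathway lists, 3 lower and 33 higher. Leaving MIR6087 out of the sums gave 1208 lower and 3369 higher, AKT1 at -0.62 (call lost), and turned signs for PIK3CB (0.17), PHLPP1 (0.30), PIK3R4 (0.23), OCRL (0.16), PPP2R1A (0.088), GRB2 (0.033) and AKT1S1 (0.11). PIK3R1 lost its call at the same median (0.84), where MLST8 turned sign (-0.0020), and with a pseudocount of 1 (0.73), and AKT1 lost its call under quantile normalization (-0.85).

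Against 4027 calls (2263 lower, 1764 higher) in all genes and 21 in the lists (7 lower, 14 higher), no filter gave 2657 higher and a filter at 5 FPKM 1150 higher and 3 lower in the lists. The filter also sets how many genes are tested. These were 12729 in the main fit, 21543 with no filter and 9319 at 5 FPKM, with 62, 74 and 48 in the lists. Testing against the threshold itself gave 2425 calls (1392 lower, 1033 higher), 13 in the lists with 7 higher, and lost AKT1 (-1.01) and PIK3R1 (0.86). The GC and length correction lost PIK3R1 (0.61), gained INPP4B (-0.86) and turned PHLPP1 (0.022), with the same values when the replicate block was added.

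Leaving out 1 sample at a time gave -1.15 to -0.92 for AKT1, -1.37 to -1.20 for AKT2, 0.44 to 0.51 for PIK3CA, -0.25 to -0.16 for PIK3CB, 0.82 to 0.92 for PIK3R1, 0.28 to 0.34 for PDPK1, -0.62 to -0.50 for INPP4B and -0.12 to -0.04 for PHLPP1. PIK3R1 lost its call in 3 of these 6 fits, and MLST8, between -0.051 and 0.059, turned sign without DMSO replicate 1, DMSO replicate 2 or BCT replicate 2.

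The labels give no pairing beyond a replicate number. In their deviations from group means same-numbered samples correlated at 0.116, 0.0328 and 0.0342, and differently numbered samples at -0.115 to 0.074. With 3 samples per group these values cannot show whether the numbers mark a pairing. The replicate block left 4033 calls, including all 4027, and changed no call among the 8 genes, with limma adjusted p of 3.71e-05 for AKT1, 8.8e-06 for AKT2 and 3.31e-05 for PIK3R1.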
